A study of Mus musculus with 10 samples.

Results

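Collagens are the main structural proteins of the extracellular matrix, and the gut wall holds most structural classes of them. The genes described here are all rows of the table whose symbol has the form of a collagen alpha chain, Col followed by a type number, the letter a and a chain number. There are 44 such genes among 45707 rows, and 30 of them passed the filter for testing, namely 5 or more of the 10 mice with a normalized count of 10 or higher. The rule for membership uses the symbol only and no measured value, although this set of genes was taken up with earlier results of these data known.

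Each collagen molecule is a helix of intertwined alpha chains, and some types are built from different chains made by different genes. Fibrillar collagens form the fibrils of the submucosa and lamina propria, type IV collagen forms the sheet of the basement membrane under epithelium, endothelium and smooth muscle, and type VI collagen forms beaded filaments between them. In the gut these genes are transcribed mainly by fibroblasts, smooth muscle, pericytes and endothelium, and less by the epithelium that lines the lumen.

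The study compared the jejunum of male littermates of 2 genotypes, with 5 mice in each group, by RNA sequencing of whole tissue. Vil-Cre mice, the controls, carry the Villin-Cre transgene, whose promoter is active in intestinal epithelial cells. Vil-Cre:NDI1 mice carry the same transgene and, at the ROSA26 locus, the yeast NADH dehydrogenase NDI1 behind a lox-stop-lox cassette, so that Cre turns it on in epithelium. Both came from crosses of homozygous Vil-Cre mice with mice heterozygous for the NDI1 allele, and both ate standard chow. Mice on this diet were 7 to 12 weeks old. All 10 mice were fasted overnight for 16 to 18 h and given water by gavage, and the jejunum was taken 1 h later and flushed with PBS. Cre is thus present in every mouse, no mouse without Cre was analysed here, and the manipulated cells are epithelial whereas most collagen transcripts come from other cells of the same piece of wall. In whole tissue, fewer cells of a type and less RNA per cell cannot be told apart.

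NDI1 separated the groups as labelled. Vil-Cre mice had 0, 0, 1, 0 and 0 normalized counts, at most 1 read in a mouse, and Vil-Cre:NDI1 mice had 982.2, 1371, 2575, 1394 and 1511. Each library held between 10145705 and 12371530 reads assigned to genes. The values are gene counts divided by a size factor for the library, so that 3 reads, the floor used here, correspond to 2.73 to 3.52 normalized counts. The smallest chi-square per gene between any of the 20 pairs of libraries of the same genotype was 13.2, so that no pair looked like 1 library deposited more than once. Epithelial markers were high in every mouse, with Epcam between 21167 and 29452 normalized counts. Slc10a2, the bile acid transporter of the ileum, stood at 199.0, 561.4 and 561.4 in Vil-Cre mice 1, 2 and 5 and at 540.6 and 219.5 in Vil-Cre:NDI1 mice 4 and 5, and at 2.94 to 21 in the other 5, although every sample is labelled jejunum. The summed smooth muscle markers were lowest in Vil-Cre mouse 4 (13400) and Vil-Cre:NDI1 mouse 1 (15315) and lay between 19942 and 27939 in the other mice. These differences between pieces of tissue run within both genotypes, and their part in the collagen values was not tested except where values without those libraries are given.

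Collagen transcripts were a small part of the tissue's RNA. Their normalized counts summed to 5743 to 7202 in Vil-Cre mice and to 5727 to 6767 in Vil-Cre:NDI1 mice. As a share of all normalized counts this was 0.0607% ± 0.00543 (SD, n = 5) and 0.056% ± 0.00353 (SD, n = 5), and the groups overlapped. Counts of a few genes made up most of the sum, since the 5 collagens with the highest counts held 51.8% of it and the 12 highest held 83.2%. By structural class, fibrillar collagens held 34.9%, beaded-filament type VI 29%, the type IV basement membrane chains 21.5%, fibril-associated collagens 5.44%, multiplexins 4.47% and transmembrane collagens 2.79%. The short-chain network collagens held 0.909% and the anchoring fibril gene Col7a1 0.745%.

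To compare levels between genes, the normalized count was divided by the length of a gene's merged exons in the GENCODE M21 annotation. On this scale Col6a1, a chain of the beaded filaments, was the highest collagen, at 151 normalized counts per kb over the 10 mice, and Col24a1, a minor fibrillar collagen, was the lowest that was tested, at 1.65, a 91.5-fold span. Behind Col6a1 came Col4a1 at 99.6, Col4a2 at 87.4, Col3a1 at 85.9, Col1a1 at 57.4, Col6a2 at 53.5, Col6a4 at 49.8 and Col1a2 at 42.6 normalized counts per kb. Col6a3 at 25.9, Col18a1 at 24.7, Col23a1 at 22.6 and Col5a1 at 20.9 completed the 12 highest. Only Col6a1 and Col4a1 had ranges over the mice that did not overlap with each other. For the other 10 of the 11 neighbouring pairs in this order the ranges overlapped. Neighbours were not compared within each mouse, so overlapping ranges do not settle the order of these pairs. The order also depends on the gene model. Per kb of the longest transcript Col6a1 was at 162, Col3a1 at 151 and Col1a2 at 98.9, and 11 of the 12 highest genes were the same.

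**Figure D1:**
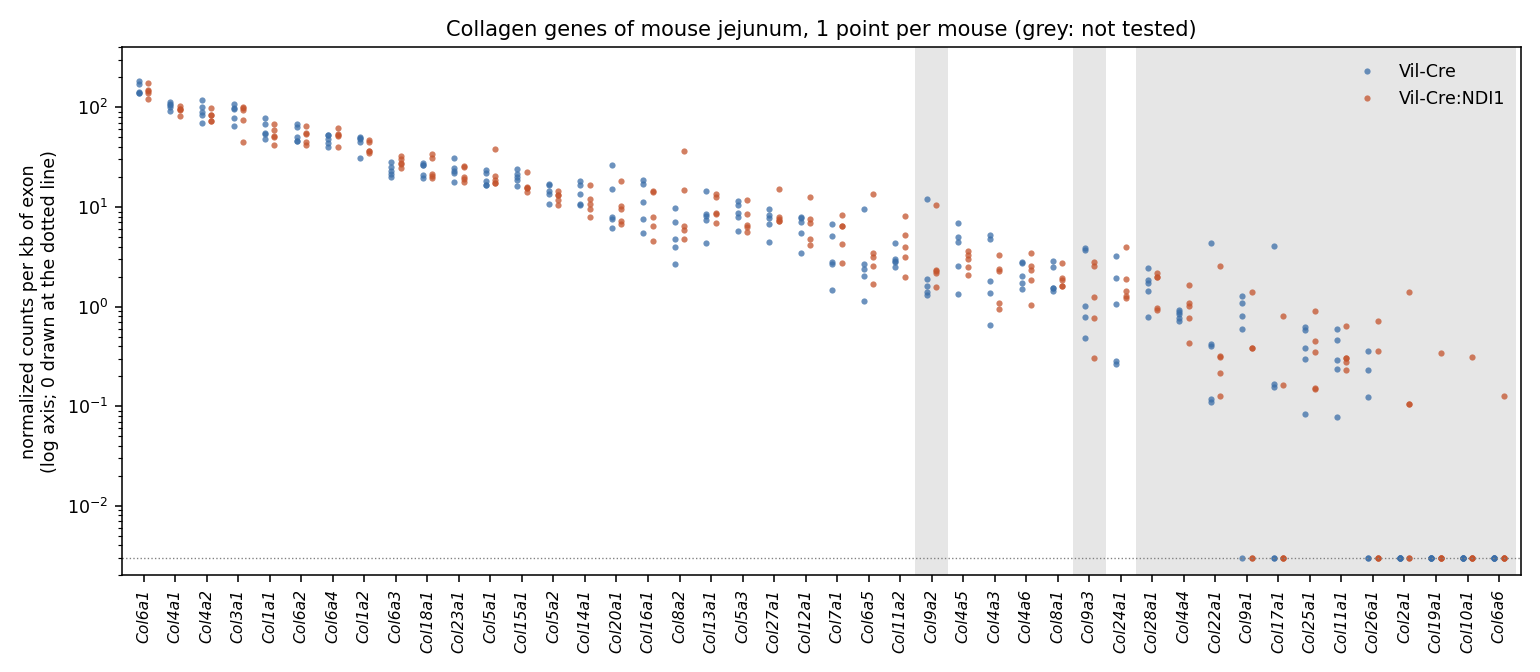
Normalized counts per kb of merged exon (log axis) for all 44 collagen genes, ordered by their mean, with 1 point per mouse in Vil-Cre (blue) and Vil-Cre:NDI1 (orange) and values of 0 drawn on the dotted line. Genes on a grey ground did not pass the filter. The colours overlap for every gene, and the level falls from 151 for Col6a1 to 1.65 for Col24a1, the lowest tested.

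Several of these genes lie beside each other in the mouse genome, and for the chains that build 1 molecule together the arrangement can be set beside how their transcripts moved. All positions are of build GRCm38. Col4a1 (chr8:11198423-11312826, minus strand) and Col4a2 (chr8:11312805-11449287, plus strand) are transcribed away from each other, and their annotated 5′ ends overlap by 22 bases. Col4a4 and Col4a3 on chromosome 1 are also head to head, 71 bases apart, as are Col4a6 and Col4a5 on chromosome X, 1308 bases apart. Col6a2 (chr10:76595762-76623630) and Col6a1 (chr10:76708792-76726168) lie on the minus strand with 85161 bases between them, whereas the third chain of that filament, Col6a3 (chr1:90765923-90843971, minus strand), is on another chromosome. RefSeq windows from 250 bases before to 50 bases after a gene's start, also of GRCm38, were found for 35 of the 44 genes, as 38 windows. Those of the major type IV and type VI chains are shown because these chains carry the comparisons of partners that follow. In the first pair the capitals mark the 78 bases, chr8:11312777-11312854, that the windows share, printed on opposite strands. The windows are chr8:11312555-11312854 on the plus strand and chr8:11312777-11313076 on the minus strand.
Col4a2: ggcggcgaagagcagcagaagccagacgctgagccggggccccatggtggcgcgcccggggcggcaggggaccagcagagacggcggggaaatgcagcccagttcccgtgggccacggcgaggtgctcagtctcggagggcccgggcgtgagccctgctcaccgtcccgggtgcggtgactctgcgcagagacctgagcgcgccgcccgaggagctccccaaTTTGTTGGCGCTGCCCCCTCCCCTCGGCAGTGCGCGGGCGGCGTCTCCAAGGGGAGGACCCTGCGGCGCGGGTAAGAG
Col4a1: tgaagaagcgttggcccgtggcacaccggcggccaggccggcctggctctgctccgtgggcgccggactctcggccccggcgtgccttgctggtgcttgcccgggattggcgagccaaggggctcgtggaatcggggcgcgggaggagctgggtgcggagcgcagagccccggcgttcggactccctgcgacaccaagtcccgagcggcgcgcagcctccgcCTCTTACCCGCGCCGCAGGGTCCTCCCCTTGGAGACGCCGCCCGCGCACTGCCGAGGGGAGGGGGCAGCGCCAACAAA

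In the type VI windows capitals mark any match, on either strand, to the CCAAT box (letters CCAAT), the TATA box (letters TATAAA) or the GC box (letters GGGCGG). They are chr10:76725995-76726294 for Col6a1, chr10:76623581-76623880 for Col6a2 and chr1:90843922-90844221 for Col6a3, each on the minus strand.
Col6a1: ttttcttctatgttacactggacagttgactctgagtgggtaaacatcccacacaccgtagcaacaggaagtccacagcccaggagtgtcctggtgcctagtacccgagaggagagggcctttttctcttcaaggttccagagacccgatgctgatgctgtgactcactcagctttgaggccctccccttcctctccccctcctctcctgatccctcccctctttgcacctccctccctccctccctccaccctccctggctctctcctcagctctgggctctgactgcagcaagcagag
Col6a2: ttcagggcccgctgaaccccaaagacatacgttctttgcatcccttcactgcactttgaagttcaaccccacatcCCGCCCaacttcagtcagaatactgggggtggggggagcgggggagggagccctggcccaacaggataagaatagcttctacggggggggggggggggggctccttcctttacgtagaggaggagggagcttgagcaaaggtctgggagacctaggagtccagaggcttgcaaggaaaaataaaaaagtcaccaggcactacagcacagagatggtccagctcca
Col6a3: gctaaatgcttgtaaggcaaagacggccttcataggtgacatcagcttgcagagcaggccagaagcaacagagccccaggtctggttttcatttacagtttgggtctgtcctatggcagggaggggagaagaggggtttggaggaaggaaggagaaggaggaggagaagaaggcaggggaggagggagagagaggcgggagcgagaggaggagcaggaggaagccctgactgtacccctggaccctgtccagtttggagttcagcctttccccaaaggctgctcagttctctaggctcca

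The type IV pair had GC contents of 73.7% and 74%, and the printed type VI windows 56.3% to 57.3%. Among these printed type VI windows only that of Col6a2 held any of the 3 motifs, a match to GGGCGG on the opposite strand. Windows of Col6a4, Col6a5 and Col6a6, not printed, also held GGGCGG or CCGCCC, and Col6a4 also held CCAAT or ATTGG. Over all collagen windows, GGGCGG or CCGCCC was in 23 of 38 (60.5%), compared with 35.7% of the 32851 windows of all genes. The median GC content was 59.8% for the collagen windows and 52.7% for all windows, and the part of GC content in this motif count was not tested. The match in the Col4a1 window lies in the stretch shared with Col4a2 and is counted in both. CCAAT or ATTGG was in 13 of 38 (34.2%), against 37.4% of all windows, and TATAAA or TTTATA in 5 of 38 (13.2%), against 13.6%. These matches are letters in a window and say nothing of what binds there.

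No collagen gene differed between the genotypes at an adjusted p under 0.05 with limma, fitted over 14301 genes. Across all genes tested that call was made for 0.00699%, which is NDI1 alone, so a count of 0 among 30 is also what the background gives. At an unadjusted p under 0.05 there was 1 collagen of 30, Col6a3, whereas the background was 4.24% of genes. Fold changes are of Vil-Cre:NDI1 over Vil-Cre on the log2 scale of the normalized count plus 1. They ran from -0.32 for Col16a1 to 0.93 for Col8a2 with a median of -0.074 over the tested collagens and 0.0052 over all genes. Of the 30 values, 17 lay below 0, against 48.8% of all genes. No collagen had groups that did not overlap, whereas 0.699% of all genes did. With DESeq2 on the recovered reads 0 of 37 collagens with an adjusted p were called, where 0.183% of genes were. An unadjusted p under 0.05 was found for Col6a3 and Col8a2, 2 of those 37, and for Col2a1, which has no adjusted p, against 4.81% of all genes with a p. With edgeR 0 were called and 0 had an unadjusted p under 0.05.

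How large a difference these data would allow depends on the gene. The 95% interval of the fold change lay within 2-fold in both directions for 21 of the 30 tested collagens, compared with 79.6% of all genes, and within 1.5-fold for 11. Among the 12 highest per kb the narrowest was that of Col4a1, from -0.33 to 0.054 on the log2 scale. Col24a1 and Col8a2 had intervals that reached 2.21 and 2.12. A p that misses the threshold therefore leaves room for changes of a size that differs from gene to gene.

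**Figure D2:**
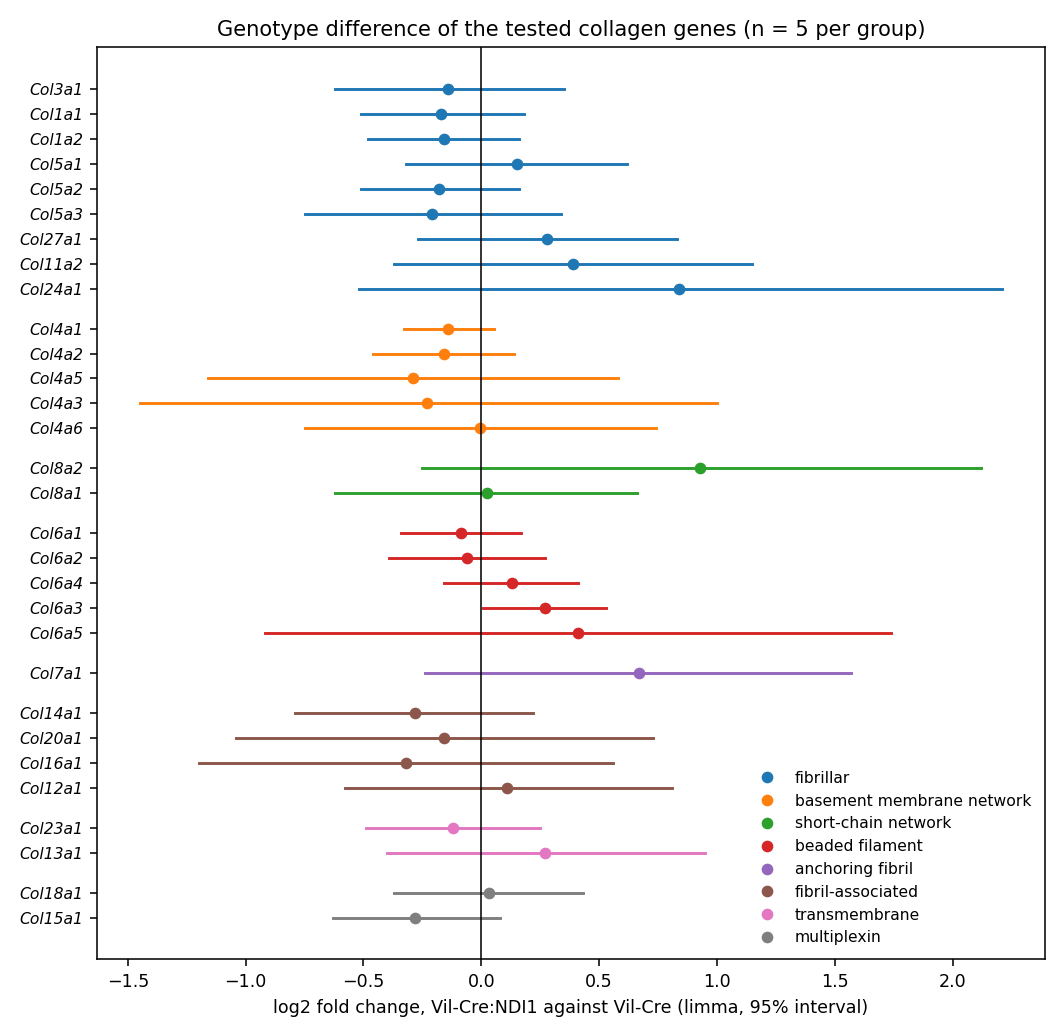
Log2 fold change of the 30 tested collagen genes, Vil-Cre:NDI1 over Vil-Cre, with the 95% interval from limma, grouped and coloured by structural class and ordered within a class by level per kb. The interval of Col6a3, which starts at 0.0077, is the only one that does not cross 0, and no adjusted p was below 0.998.

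Among the fibrillar collagens, 9 of 11 genes were tested and 0 were called. Col3a1, the type III chain of distensible tissues, had the highest raw values of any collagen. Its normalized counts were 973.7, 766.0, 1054, 938.3 and 632.3 in Vil-Cre mice and 926.3, 445.5, 734.9, 968.5 and 989.5 in Vil-Cre:NDI1 mice. The groups overlapped over nearly their whole range and Vil-Cre:NDI1 mouse 2 was lowest, so the fold change of -0.14 ± 0.22 (SE) was smaller than its error (exact permutation p = 0.627, two-sided, n = 5 per group). Without that mouse it was 0.066.

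Col1a1 and Col1a2 encode the chains of type I collagen, the main fibril protein of the body. Col1a1 stood at 443.9, 366.6, 512.9, 315.5 and 356.4 in Vil-Cre mice and at 276.4, 328.9, 336.0, 444.6 and 387.4 in Vil-Cre:NDI1 mice. Col1a2 stood at 599.0, 562.5, 633.2, 389.3 and 617.7 and at 452.9, 555.8, 458.0, 589.5 and 429.6. Both were highest in Vil-Cre mouse 3, and Col1a1 was lowest in Vil-Cre:NDI1 mouse 1 and Vil-Cre mouse 4, the mice with the lowest smooth muscle markers, whereas Col1a2 was lowest in Vil-Cre mouse 4 and Vil-Cre:NDI1 mouse 5. The fold changes were -0.17 ± 0.16 (SE) for Col1a1 and -0.16 ± 0.15 (SE) for Col1a2 (adjusted p = 0.998 for both, limma). Without Vil-Cre mouse 4, Col1a2 had a fold change of -0.29 with an adjusted p of 0.836.

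The type V chains, which regulate fibril diameter, had log2 fold changes of 0.15 ± 0.21 (SE) for Col5a1, -0.18 ± 0.15 for Col5a2 and -0.21 ± 0.25 for Col5a3. Col5a1 averaged 164.7 ± 26.5 (SD, n = 5) in Vil-Cre mice, and 4 Vil-Cre:NDI1 mice had 147.6 to 175.5 while mouse 5 had 320.5. Without that mouse its fold change was -0.056. Col27a1, a minor fibrillar collagen, showed the same picture, at 58.6 to 124.3 in Vil-Cre mice, at most 103.6 in 4 Vil-Cre:NDI1 mice and 198.4 in mouse 5. Of the remaining fibrillar genes, Col11a2 ranged from 13.7 to 55.6 and Col24a1 from 2.02 to 30.1 over the 10 mice, and both were highest in Vil-Cre:NDI1 mouse 2. The cartilage genes Col2a1 and Col11a1 did not pass the filter. Col2a1 had 0 reads in every Vil-Cre mouse and at most 11 in a Vil-Cre:NDI1 mouse, in mouse 5, and Col11a1 had 1 to 9 reads.

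Fibroblast markers pointed the same way as Col1a1, Col1a2 and Col3a1, although 4 of the 9 tested fibrillar genes had a fold change above 0. All 9 tested of the 10 markers had a fold change below 0, with a median of -0.28, 1 had an unadjusted p under 0.05 and 0 were called. Their summed normalized counts ranged from 1402 to 2945 in Vil-Cre and from 1470 to 2226 in Vil-Cre:NDI1 animals. Among all genes 48.8% had a fold change below 0. The 10 smooth muscle markers had a median of -0.085, with 2 above 0, and the 4 tested of 5 mesothelial markers were all below 0, with a median of -0.47. In the other direction lay all 8 jejunal enterocyte markers, with a median of 0.3, and 6 of 7 epithelial markers, with a median of 0.11. Of the endothelial markers 6 of 9 lay above 0, with a median of 0.024, and of the mural markers 1 of 6, with a median of -0.15. None of these markers was called, and the part of any list in the collagen values was not tested.

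All 5 tested basement membrane chains had a fold change below 0, from -0.29 for Col4a5 to -0.007 for Col4a6, and 0 of them were called. Col4a1 and Col4a2 encode the chains of the ubiquitous type IV network. Col4a1 had 853.2, 810.9, 793.5, 683.5 and 751.7 normalized counts in Vil-Cre mice and 723.4, 615.0, 769.8, 709.0 and 723.1 in Vil-Cre:NDI1 mice. It was the steadiest of the tested collagens, with a coefficient of variation of 9.18% over the 10 mice, where counting alone would give 3.67%. Its fold change was -0.14 ± 0.087 (SE), with overlapping groups (adjusted p = 0.998, limma, and exact permutation p = 0.119). Col4a2 had 669.1, 598.6, 778.4, 466.1 and 552.6 in Vil-Cre mice and 477.4, 654.2, 549.0, 486.7 and 551.7 in Vil-Cre:NDI1 mice. Its lowest values were again in Vil-Cre mouse 4 and Vil-Cre:NDI1 mouse 1, and its fold change was -0.16 ± 0.14 (SE). Col4a5 and Col4a6, the paired chains of smooth muscle basement membrane, had means of 27.2 ± 14.4 and 17.2 ± 4.75 (SD, n = 5) in Vil-Cre mice and 19.5 ± 4.20 and 17.8 ± 7.13 in Vil-Cre:NDI1 mice. Col4a3, best known from kidney glomeruli, ranged from 6.57 to 52.6 in Vil-Cre and from 9.39 to 32.9 in Vil-Cre:NDI1 animals, and its partner Col4a4, from 4.56 to 17.6 over all mice, did not pass the filter. In the 5 libraries with Slc10a2 under 100, Col4a3 had a fold change of -1.24 with an adjusted p of 0.999 (limma). These are Vil-Cre mice 3 and 4 and Vil-Cre:NDI1 mice 1, 2 and 3, chosen after seeing the data, and these controls had the highest Col4a3, 47.1 and 52.6.

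The short-chain network collagens Col8a1 and Col8a2, found around vessels and in the cornea, were low. Col8a2 had the largest fold change of any tested collagen, 0.93 ± 0.54 (SE), with an adjusted p of 0.998 and an exact permutation p of 0.175. It stood at 17.8, 31.7, 44.1, 12.1 and 21.4 in Vil-Cre mice and at 66.7, 26.4, 29.0, 21.5 and 163.2 in Vil-Cre:NDI1 mice. The size came from 2 mice, 1 and 5, and the other 3 lay inside the range of the controls. Without mouse 5 the fold change was 0.47. Col8a1 ranged from 11.1 to 22.4 over all mice, and Col10a1, the collagen of hypertrophic cartilage, had 1 read in 1 mouse and none in the others.

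Type VI collagen held the only collagen gene with an unadjusted p under 0.05 by limma. Col6a1, Col6a2 and Col6a3 encode its classical chains, and Col6a3 was the gene in question. Its normalized counts were 300.9, 340.3, 256.5, 236.6 and 272.9 in Vil-Cre mice and 363.7, 328.9, 319.5, 292.8 and 388.5 in Vil-Cre:NDI1 mice. Of the 5 Vil-Cre:NDI1 values, 2 exceeded the highest control and none fell below the control median of 272.9, but the groups overlapped. The fold change was 0.27 ± 0.12 (SE), with a 95% interval from 0.0077 to 0.53, an unadjusted p of 0.0446 and an adjusted p of 0.998 (limma), and the exact permutation p was 0.0556, where the smallest that 5 mice against 5 allow is 0.00794. Leaving out each mouse in turn gave 0.21 to 0.34, without an adjusted p under the threshold in any of them. The 5 libraries with little Slc10a2 gave 0.45, with an adjusted p of 0.999 (limma). Their only controls are Vil-Cre mice 3 and 4, which had the lowest Col6a3, 256.5 and 236.6, so the larger value rests on these mice.

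For its partners Col6a1 and Col6a2 the unadjusted p was 0.48 and 0.688 (limma). Their fold change intervals, -0.34 to 0.17 and -0.39 to 0.27, overlap that of Col6a3, 0.0077 to 0.53. Whether the fold change of Col6a3 differs from those of its partners was not tested. Col6a1 had 808.3, 757.3, 604.1, 630.9 and 615.8 normalized counts in Vil-Cre mice and 767.5, 533.9, 655.5, 646.3 and 615.1 in Vil-Cre:NDI1 mice. Col6a2 had 524.2, 570.2, 423.8, 380.2 and 379.7 and then 537.2, 372.6, 463.8, 450.5 and 352.1. The groups overlapped fully for both, with fold changes of -0.085 ± 0.12 (SE) and -0.062 ± 0.15 (SE). The genes of the related chains Col6a4, Col6a5 and Col6a6 lie next to each other on chromosome 9. Col6a4 was well expressed, at 339.9 to 452.3 in Vil-Cre mice and 338.0 to 533.2 in Vil-Cre:NDI1 mice, with a fold change of 0.13 ± 0.13 (SE). Col6a5 was uneven, at 90.8 in Vil-Cre mouse 2 and 127.6 in Vil-Cre:NDI1 mouse 2 but at 10.7 to 32.3 in the other 8 mice, and Col6a6 had 1 read in all.

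**Figure D3:**
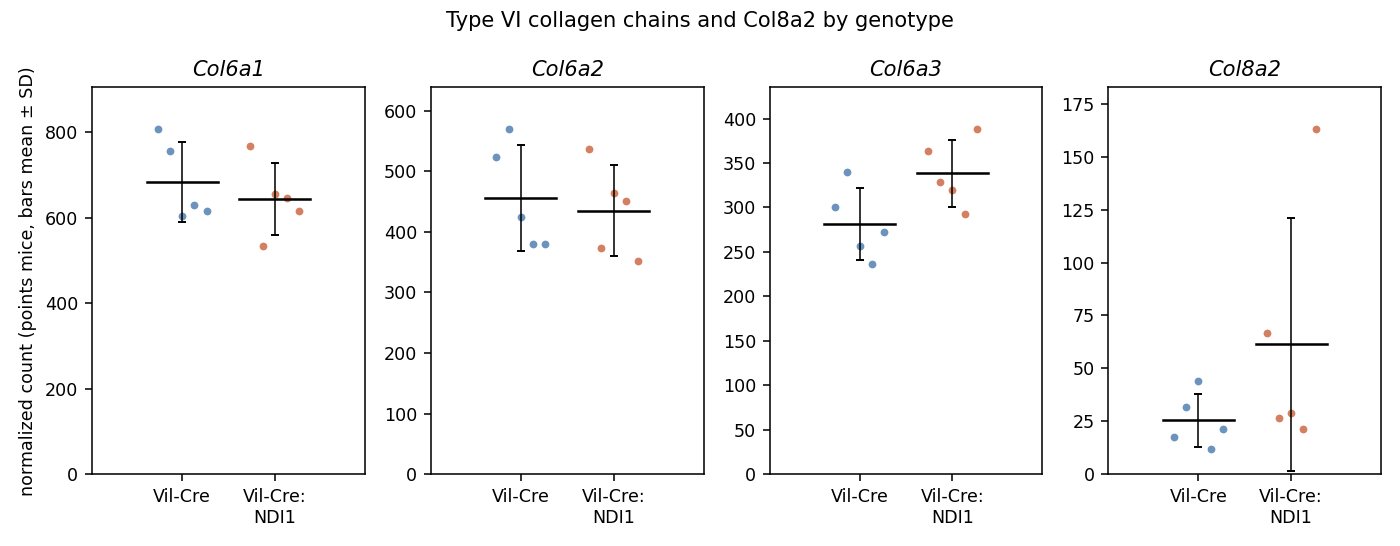
Normalized counts of Col6a1, Col6a2, Col6a3 and Col8a2 in each of the 5 mice per genotype (points), with the mean and SD as bars and axes that start at 0. Col6a3 averaged 281.4 in Vil-Cre and 338.7 in Vil-Cre:NDI1 mice, Col6a1 and Col6a2 overlapped between the genotypes, and the mean of Col8a2 in Vil-Cre:NDI1 mice rests on a value of 163.2.

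Of the remaining classes, the multiplexins Col15a1 and Col18a1 belong to basement membrane zones, and Col18a1 is the source of endostatin. Col15a1 had 126.2, 117.1, 154.3, 102.1 and 136.9 normalized counts in Vil-Cre mice and 100, 142.1, 97.8, 97.9 and 89.2 in Vil-Cre:NDI1 mice. In 4 of the 5 Vil-Cre:NDI1 mice it lay below every control, and mouse 2 lay above all but 1 of them. Its fold change was -0.28 ± 0.16 (SE), with an adjusted p of 0.998 (limma), and -0.39 without mouse 2. Col18a1 ranged from 136.0 to 193.4 and from 135.8 to 237.0, with a fold change of 0.034 ± 0.18 (SE).

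Col7a1 encodes the anchoring fibrils that tie epithelium to stroma. It stood at 15, 52.5, 29.1, 27.3 and 69.0 in Vil-Cre mice and at 65.7, 43.7, 86.2, 28.4 and 65.7 in Vil-Cre:NDI1 mice. The groups overlapped, and the fold change was 0.67 ± 0.41 (SE), with a 95% interval from -0.24 to 1.57 and an adjusted p of 0.998 (limma). Leaving out each mouse in turn gave 0.38, without Vil-Cre mouse 1, to 0.92, without Vil-Cre mouse 5. The 5 libraries with little Slc10a2, whose only controls are Vil-Cre mice 3 and 4, gave 1.13, with an adjusted p of 0.999 (limma).

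Fibril-associated collagens coat the surface of fibrils. Of 9 such genes, 4 were tested, Col12a1, Col14a1, Col16a1 and Col20a1, with fold changes from -0.32 to 0.11. Col14a1 ranged from 72.8 to 127.2 in Vil-Cre and from 55.2 to 117.6 in Vil-Cre:NDI1 animals. Col20a1 was highest in Vil-Cre mouse 3, at 135.2, and Col12a1 in Vil-Cre:NDI1 mouse 5, at 190.2. The type IX genes, known from cartilage, did not pass, although Col9a2 reached 37.4 in Vil-Cre mouse 1 and 32.3 in Vil-Cre:NDI1 mouse 4 and was at 4.04 to 7.29 in the other 8 mice. Col22a1, a collagen of tissue junctions, showed a similar pattern in other mice, at 40.1 in Vil-Cre mouse 3 and 23.7 in Vil-Cre:NDI1 mouse 2 and at 1.01 to 3.88 elsewhere. Col19a1 had at most 2 reads in a mouse.

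Among the transmembrane collagens, Col23a1 was the highest, at 102.9 to 178.4 in Vil-Cre and 102.1 to 146.2 in Vil-Cre:NDI1 mice, with a fold change of -0.12 ± 0.17 (SE). Col13a1 ranged from 20 to 66.8 over all mice. Col17a1, the hemidesmosomal collagen of stratified epithelia, was at 24.3 in Vil-Cre mouse 5 and at 0 to 4.84 in the other 9, and Col25a1 had 1 to 10 reads. The unclassified Col26a1 and Col28a1 had at most 5 and 11 reads in a mouse. Thus 14 genes did not pass the filter, 3 of them, Col6a6, Col10a1 and Col19a1, with no more than 3 reads in any mouse, which at this depth does not distinguish low from absent. The uneven genes Col6a5, Col9a2, Col17a1, Col20a1 and Col22a1 were picked out after their values were seen.

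The spread between mice was wide. The coefficient of variation over the 10 mice had a median of 27.6% among tested collagens, whereas counting alone would give a median of 9.82%, and all 30 exceeded their counting value. Vil-Cre mouse 3 had the highest value of 7 tested collagens, among them Col1a1, Col1a2, Col3a1 and Col4a2. Vil-Cre:NDI1 mouse 5 had the highest of 6, among them Col5a1, Col6a3, Col8a2, Col12a1 and Col27a1, and also the lowest of 5. Vil-Cre mouse 4 had the lowest value of 8, among them Col1a2, Col4a2 and Col6a3. Vil-Cre:NDI1 mouse 2 was lowest for Col3a1, Col4a1, Col6a1, Col6a4 and Col18a1 and highest for Col6a5, Col11a2 and Col24a1.

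**Figure D4:**
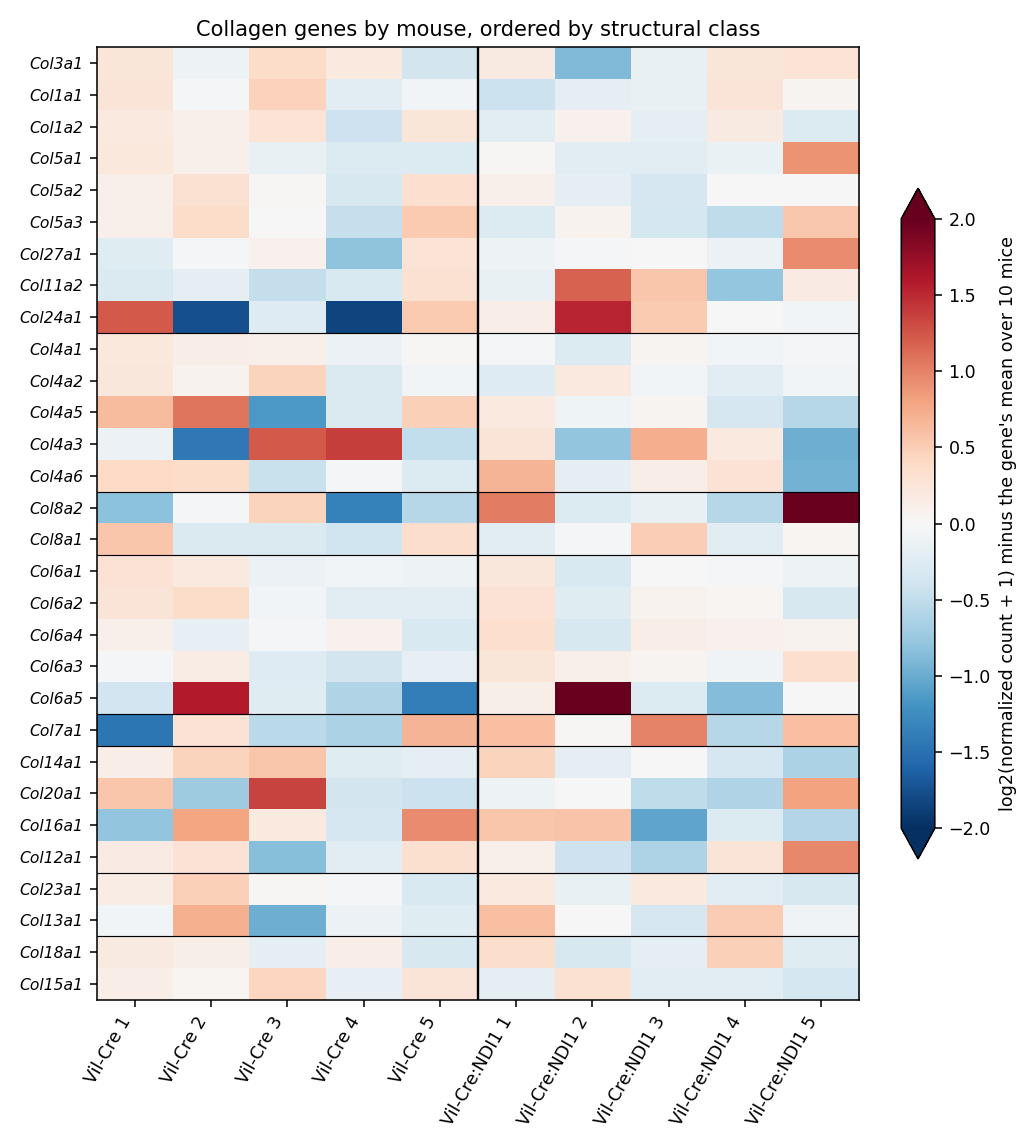
Deviation of each tested collagen gene from its own mean over the 10 mice, as log2 of the normalized count plus 1 (colour scale from -2 to 2, red above and blue below the mean), with 1 column per mouse and rows ordered by structural class. Single cells such as Col6a5 in Vil-Cre mouse 2 and Vil-Cre:NDI1 mouse 2 or Col8a2 in Vil-Cre:NDI1 mouse 5 stand out, and no block of rows follows the line between the genotypes.

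Ratios between partner chains remove differences in how much wall a sample holds, as far as both chains come from the same cells. These ratios are of normalized counts per kb within a mouse, and they carry no test. Col6a1 over Col6a2 was the steadiest, at 2.86 ± 0.253 (SD, n = 10), a coefficient of variation of 8.84% where counting gives 6.12%. Col1a1 over Col1a2 was 1.36 ± 0.194 (SD, n = 5) in Vil-Cre and 1.36 ± 0.237 in Vil-Cre:NDI1 mice, and Col4a1 over Col4a2 was 1.15 ± 0.149 and 1.17 ± 0.202. The sizes of these ratios depend on the gene model, since per kb of the longest transcript Col1a1 over Col1a2 averaged 0.648 and Col6a1 over Col6a2 averaged 1.8, but the differences between mice do not.

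Col6a3 over Col6a1 was the 1 of 7 ratios whose groups did not overlap. It was 0.136, 0.165, 0.155, 0.137 and 0.162 in Vil-Cre mice and 0.173, 0.226, 0.178, 0.166 and 0.231 in Vil-Cre:NDI1 mice. Every Vil-Cre:NDI1 mouse lay above every control, but the closest values were 0.165 and 0.166, far nearer to each other than the counting error of a ratio, a coefficient of variation of 6.88%. The means were 0.151 ± 0.0135 and 0.195 ± 0.031 (SD, n = 5). For the other 6 ratios the groups overlapped. Col6a3 over its other partner Col6a2 was not among the 7. Vil-Cre mouse 5 had 272.9 normalized counts of Col6a3 and 379.7 of Col6a2, and Vil-Cre:NDI1 mouse 4 had 292.8 and 450.5. By these values the groups overlap for Col6a3 over Col6a2, so the lack of overlap depends on the partner chosen. Col5a1 over Col5a2 was 0.994 to 1.64 in Vil-Cre mice and 1.39 to 1.67 in 4 Vil-Cre:NDI1 mice, with 2.83 in mouse 5. Col4a5 over Col4a6 spanned 0.89 to 2.63 and Col8a1 over Col8a2 spanned 0.0536 to 0.724, on low counts.

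**Figure D5:**
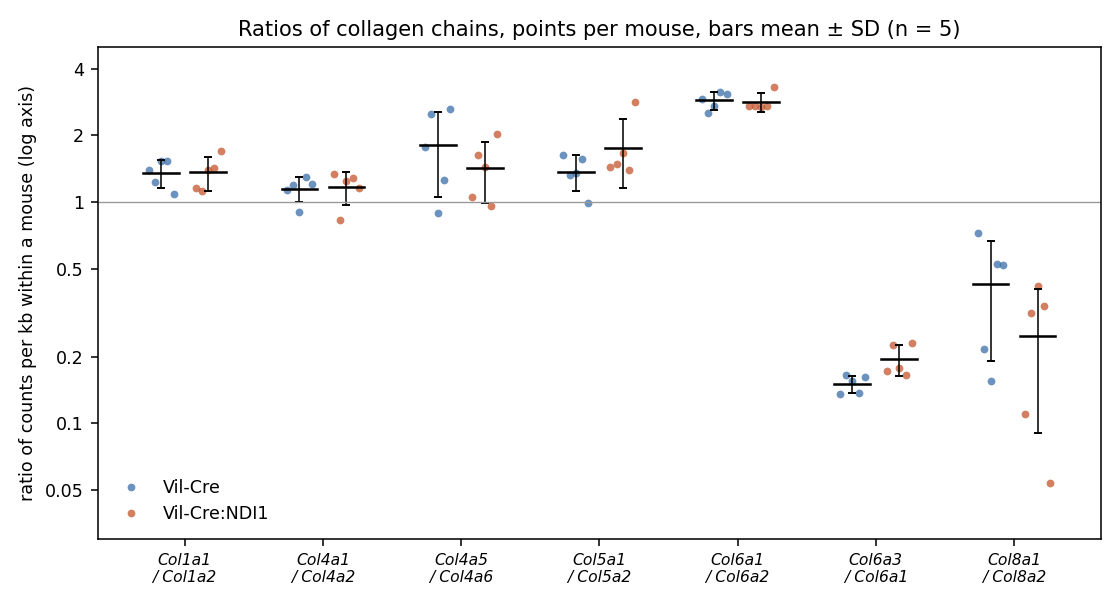
Ratio of normalized counts per kb of merged exon between partner chains (log axis), with 1 point per mouse, blue for Vil-Cre and orange for Vil-Cre:NDI1, and bars for the mean and SD of 5 mice. Among the 7 ratios shown, only Col6a3 over Col6a1 had groups that did not overlap, narrowly, with 0.136 to 0.165 in Vil-Cre and 0.166 to 0.231 in Vil-Cre:NDI1 mice.

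How closely partners followed each other over the 10 mice was measured for 14 pairs, taken as 1 family. Col6a1 and Col6a2 had a Pearson r of 0.87 (permutation p = 0.00117, adjusted over the 14 pairs 0.0164) and a Spearman rho of 0.85 (adjusted permutation p = 0.0403). Without Vil-Cre mouse 1 and Vil-Cre:NDI1 mouse 1, the mice farthest from the median of Col6a1, r was 0.82, and after the genotype means were removed it was 0.87. The adjusted p rose above 0.05 when Vil-Cre mouse 5, Vil-Cre:NDI1 mouse 1 or Vil-Cre:NDI1 mouse 3 was left out, although r stayed between 0.84 and 0.90 whichever mouse was omitted. Col6a1 and Col6a3 had r = 0.23 and rho = 0.20 (adjusted permutation p = 0.736 and 0.817), and 0.51 after the genotype means were removed.

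For the other partners the correction was not met. Col1a1 and Col1a2 had r = 0.65 and rho = 0.67, with adjusted permutation p-values of 0.311 and 0.175. Col4a1 and Col4a2, the pair with overlapping 5′ ends printed above, had r = 0.35 and rho = 0.53 (adjusted permutation p = 0.633 and 0.347), and r was 0.79 without Vil-Cre mouse 1 and Vil-Cre:NDI1 mouse 2. Vil-Cre:NDI1 mouse 2 had the lowest Col4a1 of all mice but a high Col4a2.

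The other pairs set Col1a1 against other collagens and against markers. Col1a1 had r = 0.42 with Col3a1, 0.48 with Col4a1, 0.23 with Col5a2, -0.041 with Col6a1 and -0.02 with Col18a1. With the smooth muscle gene Myh11 r was 0.60 and rho 0.65, with Pdgfra of fibroblasts 0.0025 and -0.10, with Pecam1 of endothelium 0.094 and -0.042, and with Epcam of epithelium 0.26 and 0.43. Col4a1 and Pecam1 had r = 0.39 and rho = 0.41. None of these had an adjusted permutation p under 0.05. Adipoq of adipocytes fell into separate clusters, at 0, 1.01 and 7.77 in Vil-Cre:NDI1 mouse 1 and Vil-Cre mice 4 and 5 and at 48.3 to 164.2 in the others, so no correlation with Col1a1 is given, and Col17a1 did not pass the filter.

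Genes that make, cross-link, degrade and bind collagen were counted in 7 lists of 124 genes, 108 of them tested. None was called at an adjusted p under 0.05 with limma, where 0.00699% of all genes were. An unadjusted p under 0.05 was found for 6, against 4.24% of all genes. Groups that did not overlap were found for 2, Hspg2 and Tgfb3, against 0.699% of all genes.

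Of 27 tested genes for collagen synthesis and processing, 15 had a fold change above 0 and 12 below, with a median of 0.054. P4hb, the protein disulfide isomerase that is also a subunit of prolyl hydroxylase, was the most abundant, at 23624 ± 4937 and 26675 ± 3419 normalized counts (SD, n = 5). Pcolce, the enhancer that speeds removal of the procollagen C-propeptide, was at 92.5, 73.3, 90.2, 71.8 and 98.1 in Vil-Cre mice and at 45.1, 51.0, 86.2, 51.9 and 50.5 in Vil-Cre:NDI1 mice. In 4 of 5 Vil-Cre:NDI1 mice it lay below every control, with a fold change of -0.60 ± 0.20 (SE), an adjusted p of 0.998 (limma) and an exact permutation p of 0.0238. The cross-linking list had 5 of 6 fold changes below 0 with a median of -0.26, with -0.24 ± 0.19 (SE) for the transglutaminase Tgm2 and -0.56 ± 0.39 (SE) for the lysyl oxidase Lox.

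Among 12 tested genes of collagen breakdown and its inhibitors the median was -0.14. Mmp7, the Paneth cell protease matrilysin, ranged from 556.1 to 1838 in Vil-Cre and from 549.3 to 1898 in Vil-Cre:NDI1 animals. Fap, a protease of activated fibroblasts, was at 12 to 21.4 and at 11.6 to 50.9, with a fold change of 0.69 ± 0.36 (SE) and an adjusted p of 0.998 (limma). The collagen receptors had 8 of 9 fold changes below 0 with a median of -0.12, with -0.17 ± 0.11 (SE) for Itga1 and 0.028 ± 0.073 (SE) for Itgb1, which pair as an integrin that binds type IV and type I collagen.

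The basement membrane partners held the gene with the smallest p of all lists. Hspg2 encodes perlecan, the heparan sulfate proteoglycan that binds the type IV network. It stood at 980.2, 716.8, 789.5, 781.6 and 646.8 normalized counts in Vil-Cre mice and at 475.4, 601.3, 567.4, 614.0 and 541.1 in Vil-Cre:NDI1 mice. Every Vil-Cre:NDI1 mouse lay below every control, and the exact permutation p was 0.00794, the smallest that 5 mice against 5 can give. The fold change was -0.48 ± 0.12 (SE), with an unadjusted p of 0.00166 and an adjusted p of 0.998 by limma, and DESeq2 on the recovered reads gave an adjusted p of 0.0387. On the 8 libraries whose reads were recovered with certainty, which leave out Vil-Cre mice 3 and 4, the adjusted p from DESeq2 was 0.0719. The fold change on these 8 libraries was also -0.48, with fewer control mice. The call therefore depends both on the test and on the libraries used. The list as a whole pointed both ways, with 9 of 14 tested genes above 0, 5 below and a median of 0.097. The laminin chains also pointed both ways. Lamc3, at -0.57 ± 0.29 (SE), and Lama5, at -0.46 ± 0.23 (SE), lay below 0. Lama2, at 0.70 ± 0.61 (SE), Lama4, at 0.47 ± 0.29 (SE), and Lamb3, at 0.26 ± 0.23 (SE), lay above 0. Each had an adjusted p of 0.998 (limma), and all were named after their values were seen. Agrn, the most abundant gene of the list, was at 0.16 ± 0.11 (SE).

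In the interstitial matrix list 19 of 22 tested genes had a fold change below 0, against 48.8% of all genes, with a median of -0.19, and 2 had an unadjusted p under 0.05. Thbs1, the matricellular protein thrombospondin, was at 386.7 ± 32.3 and 317.6 ± 59.2 (SD, n = 5), with a fold change of -0.30 ± 0.13 (SE). Fbln1, the most abundant, was at 0.17 ± 0.23 (SE). The TGF beta list had 13 of 18 below 0 and a median of -0.061. Ctgf, the connective tissue growth factor also named Ccn2, was at 70.1, 66.8, 71.1, 123.4 and 54.4 in Vil-Cre mice and at 42.1, 30.1, 41.6, 36.2 and 63.4 in Vil-Cre:NDI1 mice, where only mouse 5 reached the range of the controls. Its fold change was -0.83 ± 0.25 (SE) with an adjusted p of 0.998 (limma) and an exact permutation p of 0.0159. Skil, the most abundant, was at -0.044 ± 0.13 (SE).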

How the data were processed

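RNA was measured in 10 jejunum samples by single-end sequencing. Per the study's methods the authors ran nf-core/rnaseq with trimming by trimGalore!, alignment by STAR to GRCm38 extended by NDI1, and gene assignment by Salmon. The deposited values are a signal, gene counts divided by 1 DESeq2 size factor per library. The annotation release and strand setting are not given in the sources used here. Without strand, overlapping antisense transcripts and the 22 shared bases of Col4a1 and Col4a2 cannot be told apart, and reads shared by related collagen chains may be split.

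Dividing each value by that of 1 read gave whole reads for 100% of values within 0.1 read, with certainty in 8 libraries, and these were used for the count tests (DESeq2 1.42.0, edgeR 4.0.16, R 4.3.3). A floor of 3 reads covers only the error of counting. The main test was limma 3.58.1 with a variance trend on log2(value + 1), genotype as the only term and Benjamini-Hochberg adjustment, for genes of at least 10 in at least 5 mice. On simulated counts with known changes, in which 14366 genes passed the filter, it found 53.7% of 2-fold and 86.4% of 4-fold changes and 10.4% of 1.5-fold ones. The simulation held many changed genes, drawn from all genes and not from collagens, whereas only NDI1 was called in the data. The adjusted threshold is easier to pass with many changed genes, so these rates do not describe detection of collagens here. Exact permutation tests enumerated every assignment of mice to groups of 5, and correlations used 100000 permutations (Python 3.11.15, scipy 1.17.1). Nothing in the labels ties a number to a shared litter or day.

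Named genes are NDI1, the 12 tested collagens highest per kb, the 5 with the smallest limma p and, in each of the 7 lists, the most abundant gene and that with the smallest p. The members and lists were chosen with earlier results of these data known. Ccn1 and Ccn2 were matched by their older symbols Cyr61 and Ctgf. Alternatives were other pseudocounts (0.1 and 8), filters, equal totals, no variance trend, array weights, a replicate block, DESeq2, edgeR and leaving out each mouse, and, chosen after seeing the data, the 5 libraries with Slc10a2 under 100 and the count tests on 8 libraries.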

Additional observations from a re-analysis of the deposited data

Results flagged for a closer look

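In 76 groups of 5 values (30 tested collagen genes, 7 chain ratios and the collagen share, in each genotype), 10 had a highest or lowest mouse far from the other 4, with a gap of more than 0.71 of the group's range. For independent and normally distributed values, chance would give about 1 in 20 groups, or 3.8 here. These values are counts and ratios, and some groups share genes, so 3.8 is a rough guide and the excess was not tested.

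Vil-Cre:NDI1 mouse 5 was set apart for 2 genes and 2 ratios. It had 320.5 normalized counts of Col5a1, where the next mouse had 175.5, and 198.4 of Col27a1, where the next had 103.6. Its ratio of Col5a1 to Col5a2 was 2.83, with 1.67 in the next mouse, and that of Col6a1 to Col6a2 was 3.32, with 2.73 in the next. Vil-Cre:NDI1 mouse 2 was set apart for Col15a1, at 142.1 against 100 in the next mouse, for Col24a1, at 30.1 against 14.5, and for Col6a5, at 127.6 against 32.3. Col6a5 was also far above the others in Vil-Cre mouse 2, at 90.8 against 25. Col11a2 in Vil-Cre mouse 5 was at 30.1 against 20.8. Col1a2 in Vil-Cre mouse 4 was the only low value, at 389.3 where the next mouse had 562.5, and that mouse also had the lowest summed smooth muscle markers, 13400, whose part in this value was not tested.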

How the results depend on the processing

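No collagen was called under any of the 24 alternatives tried, with 0 to 4 unadjusted p-values under 0.05 among them. The count of all genes called moved from 1 to 2 with a filter of at least 50, with array weights and in the 5 libraries with Slc10a2 under 100, to 31 with DESeq2, to 268 with DESeq2 on 8 libraries, and to between 1 and 3 without single mice. For the companion genes it moved from 0 to 1 with DESeq2 (Hspg2) and to 3 with DESeq2 on 8 libraries (Cyr61, Podn and Mia2, without Hspg2). The causes were not tested. The median of the tested collagens became 0.082 in the 5 libraries with Slc10a2 under 100, and lay between -0.12 and -0.015 without single mice. With equal totals it was -0.14, where the median of all genes was -0.057. The longest transcript moved the ratio of Col1a1 to Col1a2 to 0.648 and of Col6a1 to Col6a2 to 1.8, by its lengths alone.

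The deviations of same-numbered mice from their group means had correlations of -0.116, 0.00236, 0.136, -0.108 and -0.0347 for numbers 1 to 5. These values were set against no reference and cannot exclude a shared litter or day. With a replicate block 0 collagens and 1 gene in all were called. The fold changes, with their median of -0.074, cannot move under a block in a balanced design.

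Directions reversed as follows. With equal totals Col18a1 was at -0.028 and Itgb1 at -0.035, and the correlations of Col1a1 with Col6a1 and Col18a1 were 0.039 and 0.0028. With array weights Col18a1 was at -0.073 and Col5a1 at -0.017. On 8 libraries DESeq2 gave 0.039 for Col3a1 and -0.03 for Itgb1, and edgeR 0.032 and -0.037. The 5 libraries with Slc10a2 under 100 gave 0.064 for Col6a1, 0.17 for Col6a2, -0.018 for Col18a1, 0.083 for Col23a1, -0.029 for P4hb, 0.0056 for Tgm2, 0.57 for Mmp7, -0.0031 for Agrn and -0.045 for Fbln1. Without single mice, fold changes crossed 0 for Col18a1 (-0.081 to 0.12), Col3a1 (-0.25 to 0.066), Col5a1 (-0.056 to 0.22), Col6a2 (-0.14 to 0.024), Fbln1 (-0.0027 to 0.31), Itgb1 (-0.017 to 0.06), Mmp7 (-0.38 to 0.09) and Skil (-0.13 to 0.056). So did the correlations of Col1a1 with Col18a1 (-0.29 to 0.29), Col6a1 (-0.3 to 0.25), Pdgfra (-0.15 to 0.22) and Pecam1 (-0.19 to 0.28). Apart from Hspg2, which passed the threshold with DESeq2, no named gene changed its side of the threshold. With 5 mice per group and few reads for many collagens, changes below 2-fold were often not detectable, and larger ones could also be missed.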

Other observations

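Tgfb3, a ligand of the TGF beta family made in mesenchyme, was the other companion gene whose groups did not overlap, and it was chosen after its values were seen. It had 57, 51.4, 75.1, 47.5 and 43.7 normalized counts in Vil-Cre mice and 30.4, 37.4, 43.6, 24.5 and 35.2 in Vil-Cre:NDI1 mice, with a log2 fold change of -0.67 ± 0.22 (SE) and an adjusted p of 0.998 (limma). The closest values of the groups were 43.7 and 43.6, so the separation rests on a difference smaller than 1 read. The liver list held the markers that differed most between the genotypes, although 0 were called. Of its 4 tested genes 3 had an unadjusted p under 0.05, and the median log2 fold change was -1.6. Alb stood at 762.5, 63.5, 293.5, 15.2 and 557.5 normalized counts in Vil-Cre mice and at 0.98, 17.3, 36.8, 47 and 36.4 in Vil-Cre:NDI1 mice, with a log2 fold change of -3.14 ± 1.13 (SE). It was high in Vil-Cre mice 1, 3 and 5, and the other mice overlapped. Ttr had a log2 fold change of -1.03 ± 0.30 (SE) and Serpina1c of -2.10 ± 0.67 (SE), each with an adjusted p of 0.998 (limma), whereas Apoc3, which enterocytes also make, was at 0.36 ± 0.31 (SE). The part of this list in the collagen values was not tested.

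Summed immune markers ranged from 2269 to 4150 in Vil-Cre mice and were 1757 to 5174 in Vil-Cre:NDI1 mice, summed endothelial markers from 1356 to 1785 and from 1425 to 1789, and summed mural markers from 1996 to 3852 and from 2103 to 2970, with no marker of these lists called. Of the 4 pancreas markers 1 passed the filter, and their sum was 28 to 52.9 in every mouse.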
